A study of Mus musculus with 6 samples.

Results

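The genes described here attach ubiquitin to proteins and so mark them for breakdown by the proteasome, and the data are the open chromatin at their loci in mouse liver. They were chosen from the gene annotation deposited with the peaks, as genes whose pathway entry holds ubiquitin mediated proteolysis but not protein processing in the endoplasmic reticulum, a choice that used no measured value. This gave 100 of the 10709 genes in the table, with 192 of its 22412 peaks. Open chromatin was read by ATAC-seq, an assay in which a transposase inserts sequencing adapters where DNA is accessible. The study used 6 liver samples, 3 controls labelled Ad-EGFP (genotype entry "control") and 3 labelled Ad-Dyrk1b (genotype entry "Dyrk1b overexpression"), to learn how more of the kinase Dyrk1b affects hepatic chromatin. The prefix Ad is the usual one for an adenoviral vector, EGFP is a green fluorescent protein, and both groups carry a construct with that prefix. For the mice, neither strain, sex and age nor the dose and the promoter of the constructs can be read from the labels. Nothing in the labels tells whether replicates came from separate mice, so that the p-values below measure the spread between samples, part of which may be technical.

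Ubiquitin is passed along a chain of enzymes. An E1 enzyme activates it with ATP, an E2 enzyme carries it, and an E3 ligase brings the loaded E2 to the substrate. HECT ligases take ubiquitin onto themselves first, whereas RING and U-box ligases let the E2 hand it over directly. The largest RING assemblies are modular: a cullin scaffold with a small RING protein and an adaptor holds an exchangeable substrate receptor, and the anaphase promoting complex (APC/C) is a related machine of the cell cycle. Parallel chains with their own E1 and E2 attach the ubiquitin-like proteins SUMO, NEDD8 and ISG15. In liver these enzymes turn over metabolic enzymes, growth factor receptors and transcription factors. By class the genes comprised 6 E1 genes with 8 peaks, 23 E2 genes with 47 peaks and 69 E3 genes with 135 peaks. The remaining 2 genes, Gm20661 and Kxd1, carry the pathway entry but belong to no enzyme class, and each had 1 peak. The E3 genes were 15 of the HECT type, 3 with a U-box and 21 RING proteins classed as working without a cullin. The others were 9 cullin scaffolds and adaptors, 12 cullin substrate receptors and 9 subunits or activators of the APC/C.

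The libraries held 762633 to 1267934 reads in peaks, which was 1.67% to 2.62% of the library totals behind the deposited RPKM values. A peak of these genes had a median of 29 to 46 reads per library, so that most single differences were measured with few reads, and the common biological coefficient of variation was 19.9%. Summed levels over the fixed hepatocyte markers were 318 to 464 TMM-normalised counts per 1000000 reads in peaks (CPM) in the controls and 341 to 353 CPM with Dyrk1b, with a peak at 6 of 10 markers, Alb and Apoa1 among them. Endothelial markers, with a peak at 3 of 6, summed to 123 to 134 CPM in the controls and 159 to 176 CPM with Dyrk1b, and stellate markers, with a peak at 2 of 6, to 31.7 to 48.6 CPM and 48.5 to 59.1 CPM. Macrophage markers (2 of 6 with a peak) gave 164 to 206 CPM and 162 to 185 CPM, lymphocyte markers (3 of 7) gave 53.9 to 87.4 CPM and 71.7 to 102 CPM, and none of 5 cholangiocyte markers had a peak. The part of these shifts in the values below was not tested. In whole tissue, a smaller share of cells with an open site and less opening in each cell cannot be told apart.

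No peak of a ubiquitin pathway gene passed the test for a difference between the groups. After the filter on low counts 190 of the 192 peaks were tested, the 2 left out being intronic peaks of Ube2ql1 and Anapc15, and every gene kept a tested peak. By edgeR's quasi-likelihood test with Benjamini-Hochberg adjustment over all 22051 peaks, 0 of the 190 were called at 0.05, beside a background of 0.0317% (7 peaks of the whole table). DESeq2 called 0 as well, where 19 of the 5806 peaks it gave an adjusted p (0.327%) were called and 130 of the 190 got none. The authors' deposited table lists 0 peaks of these genes with an FDR under 0.05, and their lowest FDR there is 0.299. At an unadjusted p under 0.05 by edgeR, 8 of the peaks (4.21%) were higher and 21 (11.1%) were lower with Dyrk1b, where all peaks gave 6.44% and 7.72%. When scaled by the totals that underlie RPKM, not by reads in peaks, which puts the median of all peaks at 0.17, these counts were 11 higher and 2 lower of 190, where all peaks gave 7.49% and 1.13%. With loess offsets, which adjust for level, they were 6 higher and 15 lower of 190, where all peaks gave 5.38% and 7.26%. The 3 libraries of each group did not overlap at 17 peaks (8.95%) higher and 24 peaks (12.6%) lower with Dyrk1b, against a background of 9.53% and 9.97%. On the TMM scale the shares of higher peaks thus lay a little under the background and those of lower peaks above it. With the RPKM library totals and with loess offsets, the share of lower peaks was near that of all peaks. None of the individual differences holds after adjustment.

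Promoters were taken as 1 peak per gene that the authors class as promoter or that lies no more than 3 kb from its gene's start, with the strongest such peak used. Such a peak was found for 73 of the 100 genes, a share of 73.0% where all genes gave 70.0%. The log2 change, Ad-Dyrk1b over Ad-EGFP, was below 0 at 46 of them (63.0%) and above 0 at 27, beside 57.3% below 0 over all 7501 genes with a promoter peak. This balance rests on the scaling, since 35 and 36 of the 73 were below 0 with the RPKM library totals and with loess offsets by level. The median was -0.14 on the TMM scale, 0.005 with the RPKM library totals and 0.01 with loess offsets, where all genes gave -0.07, 0.10 and 0.009. Of the promoter peaks 0 were called, beside a background of 0.0533% over all genes. Unadjusted p under 0.05 on the TMM scale was reached by 2 promoters (2.74%) higher and 11 (15.1%) lower, where all genes gave 4.35% and 8.76%. The groups did not overlap on that scale at 6 promoters (8.22%) higher and 14 (19.2%) lower, where all genes gave 6.27% and 11.9%.

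**Figure D1:**
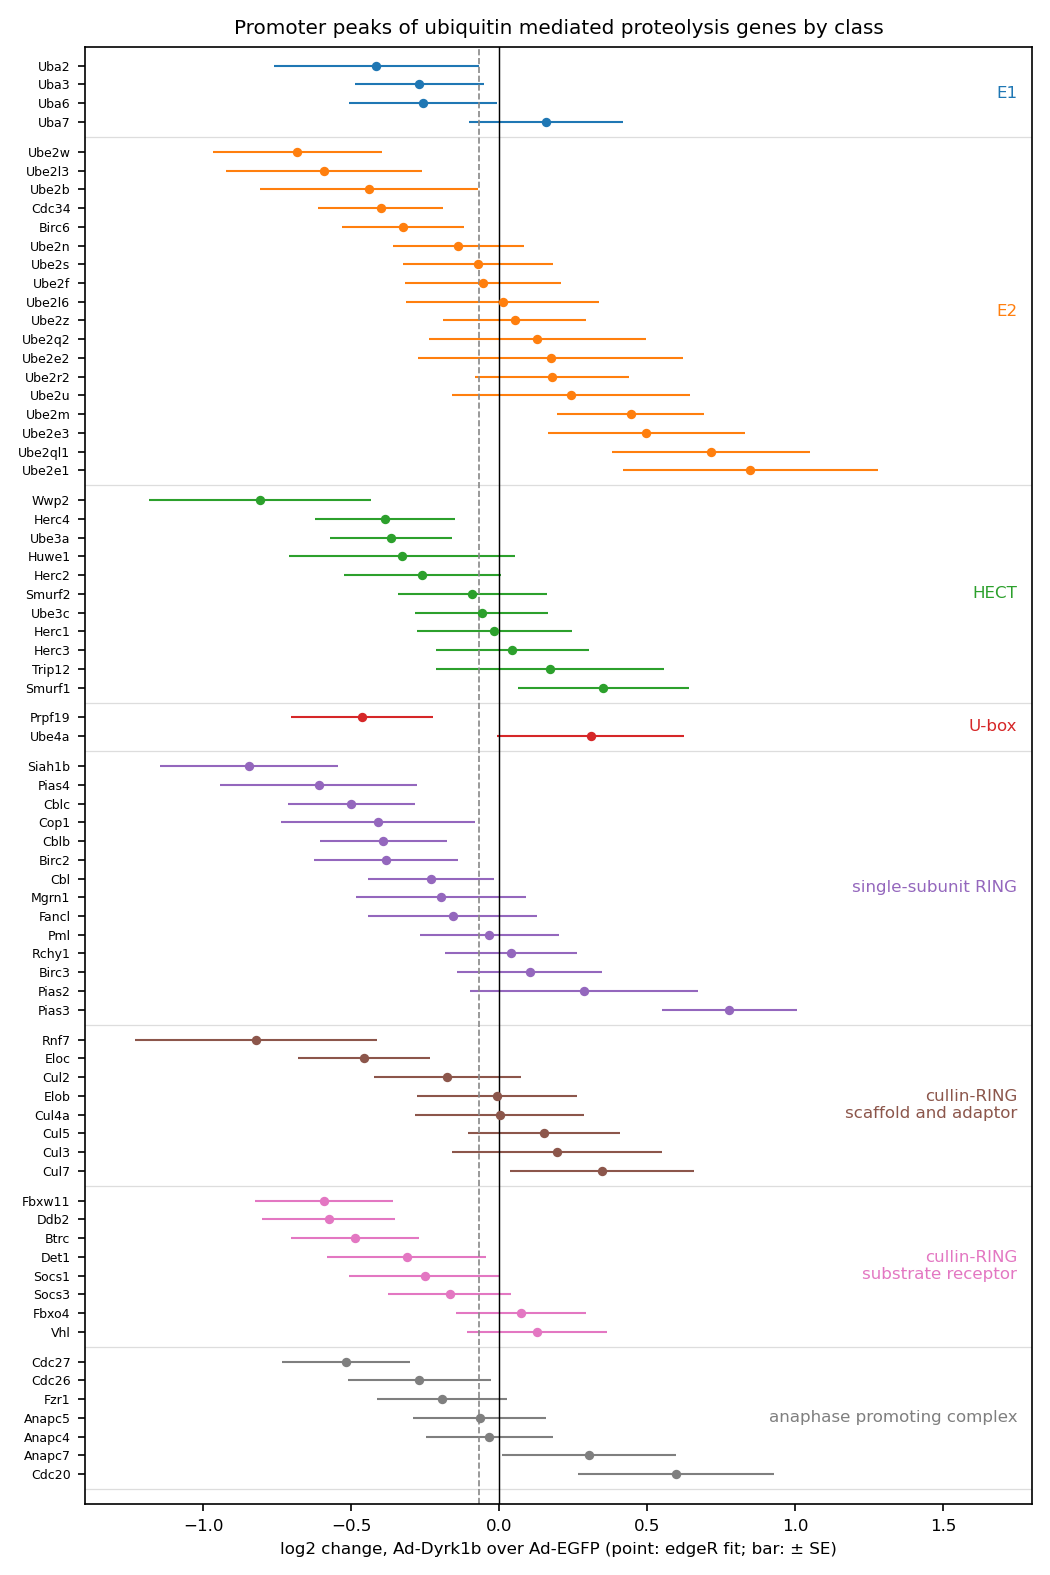
The log2 change (Ad-Dyrk1b over Ad-EGFP, x axis, point with bar for the SE of the edgeR fit, 3 libraries per group) of the promoter peak of 72 of the 73 ubiquitin pathway genes, grouped by enzyme class. Most points lie between -0.6 and 0.6, Pias3 and Ube2e1 stand farthest to the right and Siah1b, Rnf7 and Wwp2 farthest to the left; the median of all 73, -0.14, is 0.005 and 0.01 under the 2 scalings named in the text.

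Enzyme classes differed in their medians by less than their genes differed among themselves. The median log2 change at promoters was -0.26 for the E1 genes (n = 4, without Uba1 and Sae1) and 0.01 for the E2 genes (n = 19). It was -0.17 for the E3 genes (n = 50, 34 of them below 0, or 25 with the RPKM library totals and 26 with loess offsets). Within the E3 genes it was -0.28 for cullin substrate receptors (n = 8), -0.21 for RING proteins without a cullin (n = 14), -0.09 for HECT ligases (n = 11), -0.08 for U-box ligases (n = 2), -0.07 for the APC/C (n = 7) and -0.004 for cullin scaffolds and adaptors (n = 8). The E1, RING and substrate receptor medians stayed below 0 under each scaling tried, at -0.10, -0.03 and -0.12 with the RPKM library totals. HECT and APC/C medians turned above 0 with the RPKM library totals (0.10 and 0.07) and with loess offsets (0.02 and 0.09), and the U-box median did with the RPKM library totals (0.10). For the scaffolds and adaptors the median was 0.03 by library size alone, 0.14 with the RPKM library totals and 0.06 with loess offsets. No test across a class was made, since genes of a class share the same 6 libraries and are not replicates.

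Each library was also set against the mean of all 6, gene by gene at promoters. The median deviation on the log2 scale over the 73 genes was 0.13, 0.10 and 0.10 in the 3 controls and -0.14, -0.0002 and -0.04 in the 3 Dyrk1b libraries. All controls thus lay above all Dyrk1b libraries, with the first Dyrk1b library the farthest down. Over all 7501 genes the same medians were 0.05, 0.04 and 0.06 in the controls and -0.04, 0.02 and -0.03 with Dyrk1b, an order of groups that matches and a gap that is narrower. These values use TMM factors, and the median change of the 73 genes was 0.005 with the RPKM library totals and 0.01 with loess offsets. Substrate receptors showed the highest single value, 0.29 in the third control, and their Dyrk1b libraries lay at -0.21, -0.04 and -0.07.

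**Figure D2:**
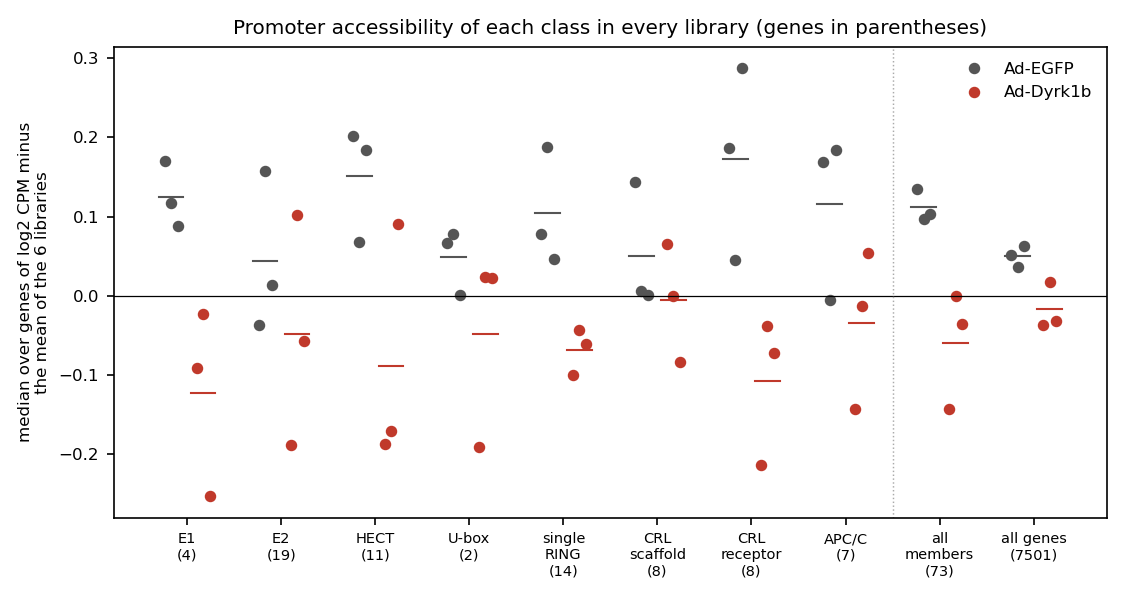
Median over the promoter peaks of a class of the log2 CPM minus the mean of the 6 libraries (y axis), for each library (grey, Ad-EGFP; red, Ad-Dyrk1b; dash, mean of the 3). Groups are apart for E1, RING, substrate receptor and all 73 genes and mixed for E2, HECT, U-box, cullin scaffold and APC/C genes on this TMM scale; the median change of all 73 genes, -0.14 on this scale, is 0.005 with RPKM library totals and 0.01 with loess offsets.

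Promoter sequences of 7 genes with a matched start are shown, chosen after the values were seen so that both directions and several classes are represented: 3 with a log2 change above 0 (Pias3, Ube2ql1, Cdc20), 3 below 0 (Fbxw11, Cdc27, Rnf7, the last with overlapping groups) and Uba3, the gene with the highest promoter level per kb. Each runs 5′ to 3′ on the strand of the gene, from 250 bases before to 50 bases after a RefSeq start in GRCm38.p6. Capitals mark matches, on either strand, to 7 core motifs: GCATGCG (Nrf1), CCGGAAG (ETS factors), GGGCGG (Sp and Klf factors), CCAAT (Nfy), AAGATGG (Yy1), TGACGTC (cyclic AMP response element) and CACGTG (E-box). A run of capitals longer than its motif holds overlapping matches, as in Rnf7, where TGACGTCA matches on both strands and 3 Sp and Klf matches overlap. The windows are chr3:96696826-96697125 on the plus strand for Pias3 (the downstream of its 2 RefSeq starts), chr13:69739848-69740147 on the minus strand for Ube2ql1, chr4:118437294-118437593 on the minus strand for Cdc20, chr11:32642305-32642604 on the plus strand for Fbxw11, chr11:104550571-104550870 on the minus strand for Cdc27, chr9:96478626-96478925 on the minus strand for Rnf7 and chr6:97205598-97205897 on the minus strand for Uba3. For Pias3 that start was taken because the peak lies at the downstream start of the deposited annotation. Windows were joined to peaks by gene symbol, so their overlap with the peaks was not checked.
Pias3: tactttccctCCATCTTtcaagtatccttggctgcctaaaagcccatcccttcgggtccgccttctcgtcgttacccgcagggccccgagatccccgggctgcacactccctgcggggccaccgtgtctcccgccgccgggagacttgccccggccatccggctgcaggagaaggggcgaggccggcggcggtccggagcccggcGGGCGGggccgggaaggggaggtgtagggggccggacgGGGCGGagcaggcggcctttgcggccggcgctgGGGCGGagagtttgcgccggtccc
Ube2ql1: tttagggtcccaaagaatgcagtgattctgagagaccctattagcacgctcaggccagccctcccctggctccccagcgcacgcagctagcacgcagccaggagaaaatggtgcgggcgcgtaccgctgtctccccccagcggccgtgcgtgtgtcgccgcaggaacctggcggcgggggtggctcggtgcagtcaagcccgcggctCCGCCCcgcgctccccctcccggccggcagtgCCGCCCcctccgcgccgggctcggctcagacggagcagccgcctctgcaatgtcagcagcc
Cdc20: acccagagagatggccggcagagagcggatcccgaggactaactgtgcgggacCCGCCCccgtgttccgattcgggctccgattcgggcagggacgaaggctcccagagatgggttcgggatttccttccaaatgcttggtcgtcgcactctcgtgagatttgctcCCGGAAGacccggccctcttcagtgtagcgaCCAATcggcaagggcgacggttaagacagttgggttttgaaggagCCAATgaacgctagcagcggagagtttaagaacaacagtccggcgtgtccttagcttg
Fbxw11: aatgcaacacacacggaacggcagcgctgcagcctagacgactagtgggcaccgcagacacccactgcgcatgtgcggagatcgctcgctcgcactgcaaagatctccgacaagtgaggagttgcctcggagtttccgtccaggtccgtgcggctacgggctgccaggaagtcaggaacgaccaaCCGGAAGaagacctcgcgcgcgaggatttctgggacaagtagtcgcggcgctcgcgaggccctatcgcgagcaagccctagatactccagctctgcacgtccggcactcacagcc
Cdc27: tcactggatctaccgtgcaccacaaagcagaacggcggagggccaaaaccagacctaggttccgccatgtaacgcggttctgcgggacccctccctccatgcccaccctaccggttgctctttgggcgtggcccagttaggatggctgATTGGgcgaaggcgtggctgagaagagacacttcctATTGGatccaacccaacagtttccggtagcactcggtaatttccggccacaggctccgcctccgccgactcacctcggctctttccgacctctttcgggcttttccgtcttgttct
Rnf7: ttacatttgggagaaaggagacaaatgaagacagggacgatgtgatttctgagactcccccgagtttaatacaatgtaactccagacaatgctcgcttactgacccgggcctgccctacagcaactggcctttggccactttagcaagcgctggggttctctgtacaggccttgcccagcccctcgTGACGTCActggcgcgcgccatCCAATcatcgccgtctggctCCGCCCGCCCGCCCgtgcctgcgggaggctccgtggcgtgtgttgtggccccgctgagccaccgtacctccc
Uba3: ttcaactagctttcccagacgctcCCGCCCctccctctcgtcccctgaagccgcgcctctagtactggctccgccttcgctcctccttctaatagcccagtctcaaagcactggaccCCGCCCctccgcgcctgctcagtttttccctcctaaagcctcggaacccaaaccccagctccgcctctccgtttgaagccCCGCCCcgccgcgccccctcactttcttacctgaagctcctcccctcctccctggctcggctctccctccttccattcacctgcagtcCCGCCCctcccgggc

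These windows are rich in G and C, from 58.7% in Cdc20 to 72.7% in Pias3. The Sp and Klf core is in 5 of the 7, while Fbxw11 holds only an ETS core and Cdc27 only Nfy cores among the motifs searched. The promoter table holds 81 of the 100 genes, and 62 of the 73 with a promoter peak. Of these 62, the Sp and Klf core was in 72.6%, beside 67.2% of the 6009 matched genes with a promoter peak and 35.9% of all 27025 promoters of that length. For the ETS core the shares were 22.6%, 18.9% and 9.12%, and for the Nrf1 core 8.06%, 7.06% and 3.64%. For these cores the pathway genes lay nearer to other genes with a promoter peak than to all promoters. The Yy1 core was in 16.1% (10 of 62), where the others gave 7.06% and 6.48%, and the Nfy core in 25.8%, where they gave 37.4% and 37.9%. The E-box gave 6.45%, 9.67% and 7.24%, and the cyclic AMP response element 4.84%, 4.89% and 3.33%. A match describes letters in the window and is not a site bound in these livers.

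The E1 genes start each chain. Uba1, which activates ubiquitin for most E2 enzymes, had its single peak on chromosome X (20529032 to 20529375, in the 5′ UTR of the annotated transcript), centred 66 bases from the start of the shorter annotated transcript. Its deposited distance to the start of the gene was 4638 bases, beyond the 3 kb used for promoters. This peak was therefore counted outside promoters and does not enter the E1 promoter median. It read 32.8, 36.4 and 25.5 CPM in the controls and 17.3, 18.7 and 11.5 CPM with Dyrk1b. All 3 Dyrk1b libraries were below all controls, and the log2 change was -1.02 ± 0.40 (SE, edgeR, adjusted p = 0.257). Uba6, the other E1 that activates ubiquitin, had a promoter peak of 62.6 ± 5.81 CPM in the controls and 52.8 ± 6.54 CPM with Dyrk1b (SD, n = 3), with overlapping groups and an estimate of -0.26 ± 0.25. Uba3, the catalytic subunit of the E1 for NEDD8, had the highest promoter level of all 73 genes, 145.9 CPM per kb. Its controls read 98.5, 85.0 and 98.1 CPM and its Dyrk1b libraries 77, 84.9 and 72.2 CPM. The groups touched without overlapping, and the log2 change of -0.27 ± 0.22 was close to its standard error.

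Both subunits of the E1 for SUMO were among the genes. Uba2, the catalytic subunit, had a promoter peak with a log2 change of -0.42 ± 0.35 and overlapping groups, at 34.3 ± 10.8 CPM in the controls and 25.8 ± 2.99 CPM in the Dyrk1b libraries. An intronic peak of Uba2 gave -0.03 ± 0.31, a sign that turned with the scaling. Sae1, its partner, had no promoter peak, and its intronic peaks gave 0.55 ± 0.31 and 0.63 ± 0.32. The first read 22.3, 36.4 and 33.6 CPM in the controls and 53.1, 46.3 and 36.9 CPM with Dyrk1b, with the highest control just under the lowest Dyrk1b library. The second gave 0.21 without the second Dyrk1b library and 0.95 without the first control. Uba7, the E1 for the interferon-induced modifier ISG15, had a promoter log2 change of 0.16 ± 0.26 with overlapping groups. Adjusted p values of the E1 peaks by edgeR ran from 0.257 to 0.972, so none of them passed the test.

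E2 promoters lay on both sides of 0, with 9 below and 10 above, at log2 changes from -0.68 to 0.85. Ube2w, an E2 that adds ubiquitin to the N terminus of proteins, read 56.3, 60.7 and 41.7 CPM at its promoter in the controls and 31.8, 28.7 and 37.6 CPM with Dyrk1b. These groups did not overlap, and the log2 change was -0.68 ± 0.29 (adjusted p = 0.280). Ube2ql1, a little-studied E2-like gene, was the only E2 gene whose promoter was above 0 with an unadjusted p under 0.05. Its controls read 19.9, 24.3 and 26.9 CPM, its Dyrk1b libraries read 39.8, 43.0 and 34.6 CPM, and the log2 change was 0.72 ± 0.33 (adjusted p = 0.323). The peak covered -330 to 113 bases from its deposited start, and the groups were well apart. The printed window is set on a RefSeq start matched by gene symbol, so its overlap with the peak was not checked.

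Birc6, a giant inhibitor of apoptosis that joins E2 and E3 activity, had the highest E2 level (133 CPM per kb) and read 132, 168 and 125 CPM in the controls and 105, 117 and 117 CPM with Dyrk1b. Its groups did not overlap, at a log2 change of -0.33 ± 0.20. Cdc34, the E2 that builds chains on cullin substrates, gave -0.40 ± 0.21 at 110 ± 2.60 CPM in the controls and 83.1 ± 4.13 CPM with Dyrk1b. The E2 enzymes for NEDD8 had estimates of opposite sign, since Ube2m gave 0.44 ± 0.25 with all Dyrk1b libraries above the controls and Ube2f gave a value of -0.05 with no such order. Ube2e1 had the highest estimate of any promoter, 0.85 ± 0.43, but rested on 15.1 ± 4.91 CPM in the controls and 27.3 ± 8.91 CPM with Dyrk1b. The adjusted p of each of these was above 0.3.

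**Figure D3:**
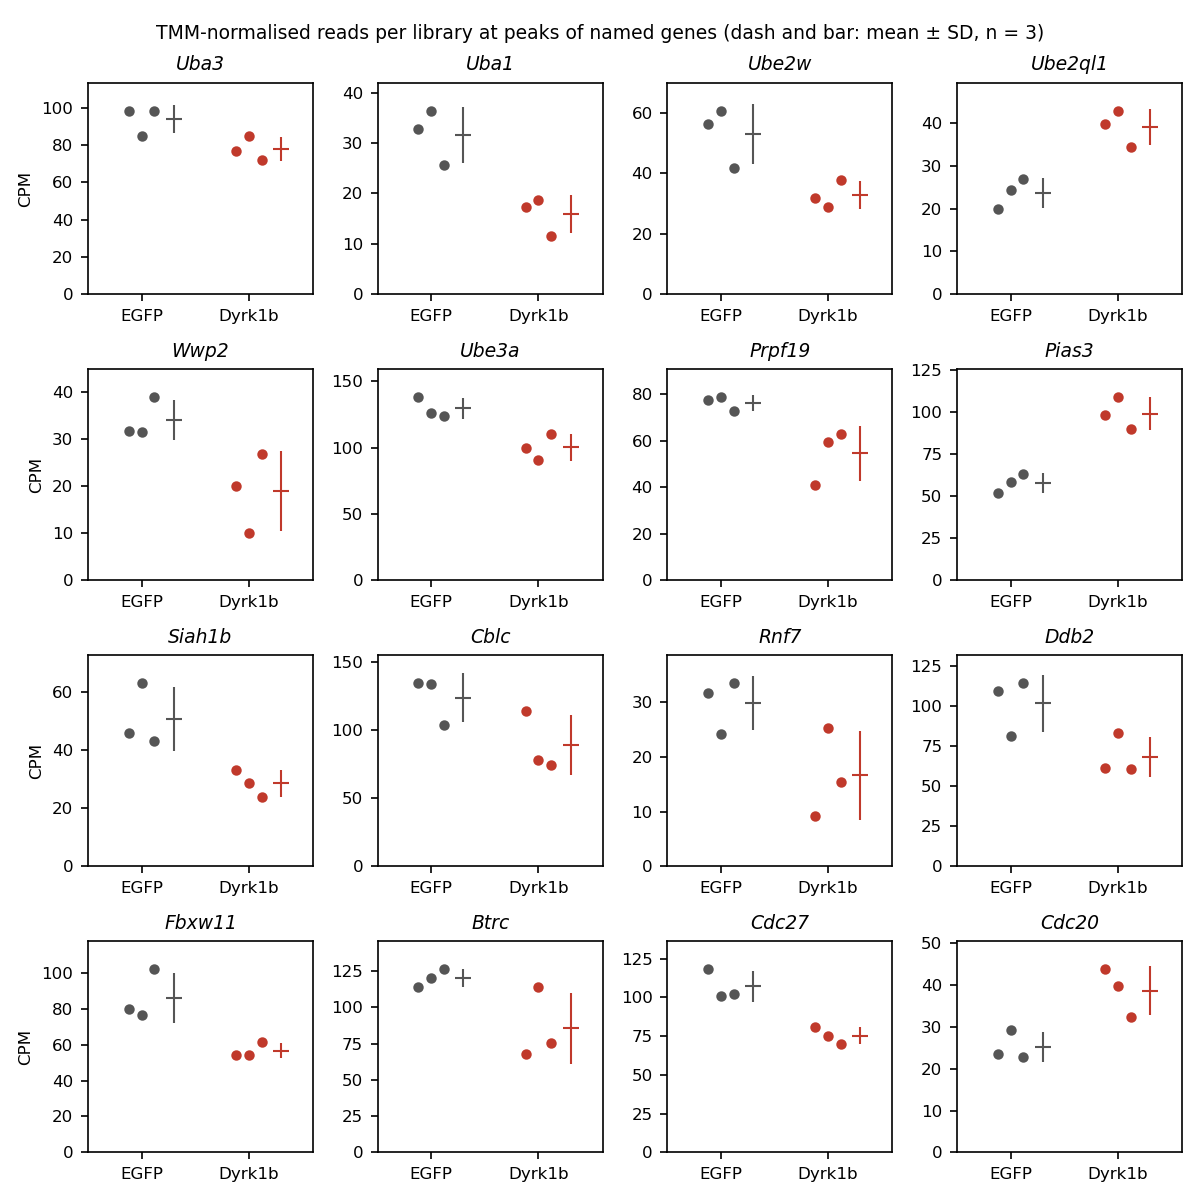
TMM-normalised CPM (y axis from 0) in each library at 16 peaks of named genes (grey, Ad-EGFP; red, Ad-Dyrk1b; dash and bar, mean ± SD, n = 3). Pias3, Ube2ql1 and Cdc20 have all Dyrk1b libraries above the controls, and Uba1, Siah1b, Fbxw11, Cdc27 and Wwp2 have them all below, whereas Rnf7, Ddb2 and Cblc overlap.

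Among RING ligases that act without a cullin, Pias3 had the lowest p of all the pathway peaks. Pias3 belongs to the protein inhibitors of activated STAT, which act as SUMO ligases. Its peak (chr3, 96604073 to 96604816) is centred 11 bases from the start of the downstream annotated transcript. The controls read 51.6, 58.3 and 63.2 CPM and the Dyrk1b libraries 98.2, 109 and 89.8 CPM. The groups lay far apart, with a log2 change of 0.78 ± 0.23 (unadjusted p = 0.00108), yet the adjusted p was 0.140. A second Pias3 peak (96603489 to 96603886), at the upstream start, read 46.4 ± 3.63 CPM in the controls and 47.4 ± 12.9 CPM in the Dyrk1b libraries, or 0.06 ± 0.27 on the log2 scale. The estimate was thus large at 1 of its 2 neighbouring starts, and the difference between them was not tested. The related genes gave other values: Pias4 had a promoter log2 change of -0.61 ± 0.33 with non-overlapping groups, Pias2 one of 0.29 ± 0.39, and Pias1, with only an intronic peak, one of -0.10 ± 0.25. With Uba2 and Pias4 below 0 and Sae1 and Pias3 above it, these genes of the SUMO chain had no common direction.

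Siah1b, a RING ligase of the seven-in-absentia family on chromosome X, read 45.7, 63.2 and 43.0 CPM in the controls and 33.2, 28.7 and 23.8 CPM with Dyrk1b. The groups did not overlap, and the log2 change was -0.85 ± 0.30 (adjusted p = 0.218), on the lowest promoter level of the 73 genes (53.2 CPM per kb). Cblc, an epithelial member of the Cbl family that ubiquitinates receptor tyrosine kinases, read 135, 134 and 104 CPM in the controls and 114, 78.3 and 74.5 CPM with Dyrk1b. The groups overlapped, at -0.50 ± 0.22 (adjusted p = 0.294). The relatives Cblb and Cbl gave -0.39 and -0.23, so the estimates of all 3 were below 0, under each scaling tried. Birc2, an inhibitor of apoptosis that acts in TNF signalling, gave -0.38 ± 0.24 and its neighbour in function Birc3 a value of 0.10. Cop1, counted in this class although it pairs with the cullin substrate receptor Det1, degrades transcription factors such as c-Jun and gave -0.41 ± 0.33.

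HECT promoters gave 8 estimates below 0 and 3 above, a balance whose median turned under the scalings given above. Wwp2, a ligase of the NEDD4 family with WW domains, read 31.7, 31.6 and 39.0 CPM in the controls and 19.9, 9.92 and 26.9 CPM with Dyrk1b. The Dyrk1b libraries were all lower and widely spread, with a log2 change of -0.81 ± 0.38 (adjusted p = 0.320), and a further Wwp2 promoter peak gave 0.11 ± 0.41. Ube3a, the ligase lost in Angelman syndrome, read 138, 126 and 124 CPM in the controls and 99.5, 90.4 and 111 CPM with Dyrk1b. These groups did not overlap, at -0.36 ± 0.21 (adjusted p = 0.411). Herc4 likewise had non-overlapping groups at -0.39 ± 0.24, with 74.7 ± 7.05 CPM in the controls and 56.7 ± 7.77 CPM with Dyrk1b. The U-box genes had estimates of opposite sign: Prpf19, also a splicing factor, read 77.4, 79.0 and 72.6 CPM in the controls and 41.1, 59.5 and 63.0 CPM with Dyrk1b (-0.46 ± 0.24), and Ube4a, a chain-elongating ligase, read 30.1 ± 0.494 CPM and 37.5 ± 2.25 CPM (0.31 ± 0.32).

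Substrate receptors choose what a cullin ligase degrades. On the TMM scale 3 of their 8 promoters (37.5%) had an unadjusted p under 0.05 by edgeR, all lower. All genes gave 8.76% lower and 4.35% higher on that scale. The 3 were those of Fbxw11, Btrc and Ddb2. With the RPKM library totals they gave log2 changes of -0.42 ± 0.36, -0.30 ± 0.34 and -0.41 ± 0.35. With loess offsets they gave -0.46 ± 0.23, -0.32 ± 0.21 and -0.42 ± 0.22. Fbxw11 and Btrc encode the β-TrCP proteins, F-box receptors for β-catenin and IκB. Fbxw11 read 79.7, 76.5 and 102 CPM in the controls and 54.4, 54.0 and 61.4 CPM with Dyrk1b, well apart, with a log2 change of -0.59 ± 0.23 (adjusted p = 0.255). Btrc read 114, 120 and 126 CPM in the controls and 67.7, 114 and 75.2 CPM with Dyrk1b, and its log2 change was -0.49 ± 0.22 (adjusted p = 0.302). The second Dyrk1b library of Btrc was only just below the lowest control. Ddb2, the receptor that finds ultraviolet damage in chromatin, read 109, 81.4 and 114 CPM in the controls and 61.0, 82.7 and 60.7 CPM with Dyrk1b, an overlap of 1 library at -0.58 ± 0.22 (adjusted p = 0.253). Socs1 and Socs3, which restrain cytokine signalling, gave -0.25 ± 0.26 and -0.17 ± 0.21. Vhl, the receptor for hypoxia-inducible factors, gave 0.13 ± 0.24 and Fbxo4 a value of 0.07, both with overlapping groups.

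On the TMM scale cullin scaffolds and adaptors had 2 of 8 promoters (25%) lower at an unadjusted p under 0.05 by edgeR and 0 higher. All genes gave 8.76% and 4.35%. By sign alone, 4 of the 8 promoters were below 0 and 4 above. Over all their peaks it was 4 of 11 (36.4%) lower and 0 higher on that scale, beside 7.72% and 6.44% over the whole table. The 4 were those of Rnf7, Eloc, Cul4b and Cul5. With the RPKM library totals Rnf7, Eloc and Cul4b gave -0.63 ± 0.46, -0.28 ± 0.35 and -0.85 ± 0.42, and with loess offsets -1.02 ± 0.41, -0.31 ± 0.22 and -1.02 ± 0.34. With those totals 2 of all 190 pathway peaks were lower at that threshold. Rnf7, the RING subunit that works with Cul5, read 31.7, 24.3 and 33.6 CPM at its promoter in the controls and 9.29, 25.4 and 15.4 CPM with Dyrk1b. The second Dyrk1b library lay within the controls, at a log2 change of -0.82 ± 0.41 (adjusted p = 0.351). Eloc, the elongin C adaptor of Cul2 and Cul5 ligases and the strongest promoter of the class, gave -0.46 ± 0.22 at 96.7 ± 13.7 CPM and 70.0 ± 12.3 CPM, with overlapping groups. Elob, its partner, gave -0.01 ± 0.27, Cul4a gave 0.001 ± 0.28 and Cul3 gave 0.20 ± 0.35. Cul7 had the largest positive estimate, 0.35 ± 0.31, with a first control of 19.9 CPM far below the others at 47.4 and 32.3 CPM. Its estimate was 0.07 without that control and 0.70 without the second. The Cul5 peak with the low p, downstream of the gene, gave -0.86 ± 0.40 (adjusted p = 0.319) with all Dyrk1b libraries below the controls.

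Subunits of the APC/C, which drives exit from mitosis, had 14 tested peaks in this largely non-dividing tissue. Cdc27, a scaffold subunit, read 118, 101 and 102 CPM in the controls and 81.0, 75.0 and 69.9 CPM with Dyrk1b. The groups were clearly apart, at a log2 change of -0.52 ± 0.22 (adjusted p = 0.280). Cdc20, the mitotic activator, read 23.4, 29.2 and 22.9 CPM in the controls and 43.8, 39.7 and 32.2 CPM with Dyrk1b, also without overlap and in the other direction (0.60 ± 0.33, adjusted p = 0.402). Fzr1, the activator that keeps the complex on in quiescent cells, gave a value of -0.19. Anapc4 had the highest level of the class, 116 CPM per kb, and read 92.6, 129 and 153 CPM in the controls and 94.2, 119 and 147 CPM with Dyrk1b. The groups covered the same range, and the log2 change of -0.03 ± 0.21 changed sign with the scaling. Some of these starts lie close to that of another gene. In GRCm38 the start of Cdc27 lies 43 bases from that of Myl4 on the other strand and that of Cdc26 158 bases from Prpf4. A peak there may cover the starts of both genes, so it cannot be given to one with certainty. Of the 62 genes checked, 9 had a neighbour with such a start on the other strand within 1 kb. Cul4a with Pcid2 (280 bases) and Trip12 with Fbxo36 (537 bases) were among them. The orientation of each pair was not checked, and no share over all genes was counted.

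Peaks away from promoters lay around 0. The 103 tested ones had a median log2 change of -0.02 on the TMM scale, with 55 below 0 and 48 above, and of 0.02 by library size alone, 0.14 with the RPKM library totals and 0.003 with loess offsets. All such peaks gave 0.07, 0.11, 0.24 and 0.04 on the same scales. In 28 genes with both kinds of peak, the promoter and the median of the other peaks had the same sign in 11 (9 both below 0, 2 both above). In 12 genes the promoter was below 0 and the others above, and in 5 it was the reverse. These signs are on the TMM scale, where promoters of all genes had a median of -0.07 and other peaks 0.07. The pairing was not counted over all genes or on the other scales. The 3 lowest p values outside promoters were those of Cul4b, Mid1 and Mgrn1. The intronic peak of Cul4b, a cullin scaffold on chromosome X, read 42.2, 40.1 and 48.4 CPM in the controls and 29.2, 23.2 and 15.4 CPM with Dyrk1b. Its groups were well apart, at -0.98 ± 0.33 (adjusted p = 0.196). Mid1, an X-linked RING protein that binds microtubules, read 44.6, 54.7 and 71.3 CPM in the controls and 25.2, 20.9 and 43.8 CPM with Dyrk1b (-0.87 ± 0.30, adjusted p = 0.196), and its highest Dyrk1b library came just under the lowest control. Mgrn1, the mahogunin ligase, overlapped by 1 library at 98.5, 64.4 and 104 CPM against 42.5, 57.3 and 66.8 CPM (-0.65 ± 0.24, adjusted p = 0.227).

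On the TMM scale, of the genes with 4 or more peaks all but Fbxw7 held values of both signs. Of the 100 genes 50 had 1 peak, 28 had 2, and 10 had 4 or more, with 8 at Smurf1 and 6 at Nedd4l. Smurf1, a HECT ligase that limits BMP and TGF-β signalling, ran from -0.29 to 1.32. The high value was an intronic peak 39039 bases from the start, at 8.21, 9.72 and 8.07 CPM in the controls and 26.5, 14.3 and 24.6 CPM with Dyrk1b. Although these groups were far apart, the levels were low and the SE was 0.55 (adjusted p = 0.276). With controls this low, the peak passed the filter on low counts only through its Dyrk1b libraries, so the gap is no support for a change. Btrc combined its promoter value of -0.49 with an intronic peak at 1.44 ± 0.60, on 6.93 ± 2.84 CPM in the controls and 19.1 ± 6.13 CPM with Dyrk1b. That intronic peak also passed the filter only through its Dyrk1b libraries. At Rhobtb1, a substrate receptor for Cul3, 4 of 5 peaks were below 0, the lowest at -1.13 ± 0.42 with 37.5, 29.2 and 26.9 CPM against 21.2, 6.62 and 15.4 CPM (adjusted p = 0.238). At Fbxw7, the receptor for cyclin E and Myc, all 4 intronic peaks were above 0, between 0.17 and 0.45 (with loess offsets 3 of 4, the lowest at -0.01), and each had overlapping groups. Nedd4l, a regulator of the epithelial sodium channel, spanned -0.56 to 0.42. The genes Smurf1, Btrc, Rhobtb1, Fbxw7 and Nedd4l were looked at for their number of peaks.

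**Figure D4:**
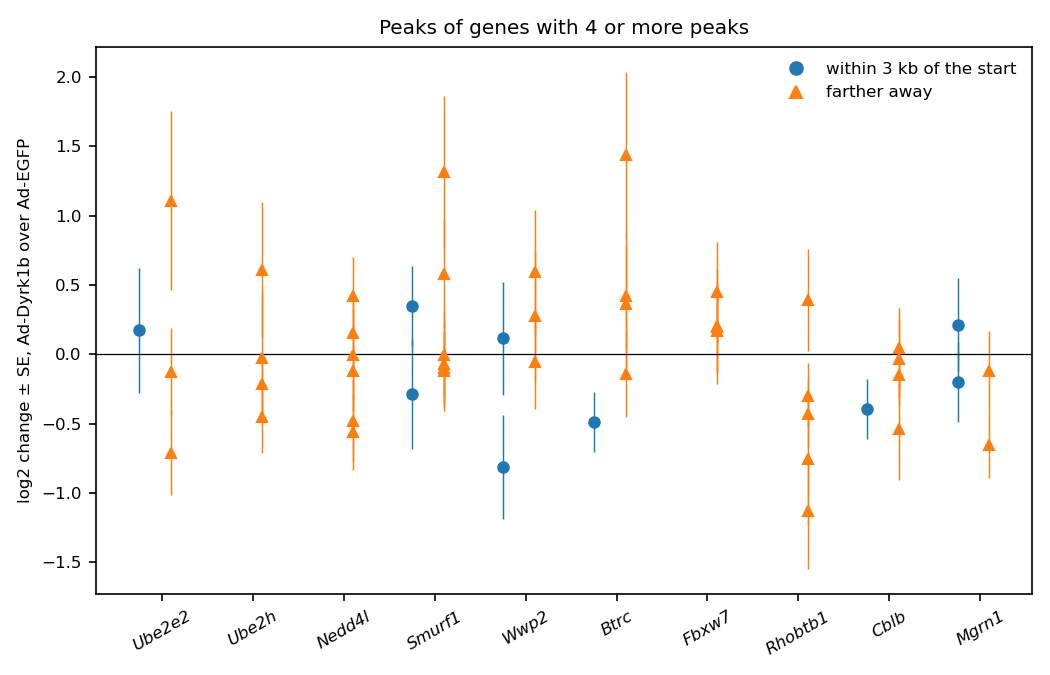
Log2 change (Ad-Dyrk1b over Ad-EGFP, y axis, with SE from the edgeR fit) of every tested peak of the 10 genes with 4 or more peaks (blue circles, within 3 kb of the start; orange triangles, farther away). Smurf1 and Btrc each have 1 peak above 1.3, Fbxw7 has all 4 above 0 (3 with loess offsets), and 4 of the 5 Rhobtb1 peaks lie below 0.

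On the TMM scale the estimates varied with the level of the peak, for these genes and for the whole table. At a mean up to 20 CPM the pathway peaks had a median log2 change of 0.71 (23 peaks, 20 above 0), where all peaks gave 0.41 (2722 peaks, 1876 above 0). Peaks this low can pass the count filter through either group alone, and what this does to the medians was not tested. Between 20 and 40 CPM they had a median of -0.0008 (79 peaks) and all peaks 0.11, and between 40 and 80 CPM both were at -0.10 (63 peaks of these genes). Above 80 CPM 23 of 25 were below 0, with a median of -0.23, where all peaks had 1362 of 1789 below 0 and a median of -0.17. With the RPKM library totals 18 of the 25 were below 0, where all peaks gave 912 of 1789. With loess offsets it was 17 of the 25, where all peaks gave 881 of 1789. With loess offsets, which adjust for level, the lowest range of the pathway peaks had a median of 0.45 and the highest -0.06, where all peaks gave 0.13 and 0.005.

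**Figure D5:**
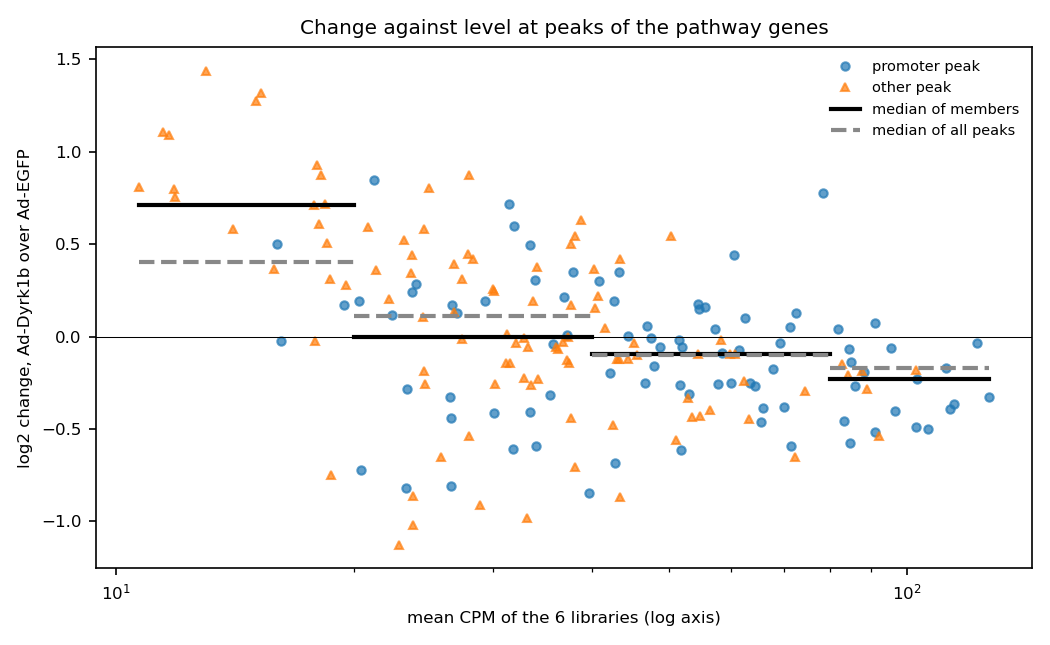
Log2 change (Ad-Dyrk1b over Ad-EGFP, y axis) against the mean CPM of the 6 libraries (log x axis) for the 190 tested peaks of the pathway genes (promoter and other peaks), with medians in 4 ranges of level for these peaks and for all peaks. On this TMM scale both sets of medians step down from low to high level, from 0.71 to -0.23 and from 0.41 to -0.17; with loess offsets the ends are 0.45 and -0.06, and 0.13 and 0.005.

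Genes on chromosome X were grouped after the values were seen. They had 9 peaks in 6 genes, and the peaks of Uba1, Cul4b, Siah1b and Mid1 with an unadjusted p under 0.05 were 4 of these 9, all lower and all with groups that did not overlap. Over the whole table the 264 tested X-linked peaks had a median log2 change of -0.13. At that threshold 32 of them (12.1%) were lower and 5 (1.89%) higher. Autosomal peaks had a median of 0.006, with 7.66% lower and 6.49% higher. The groups did not overlap, lower with Dyrk1b, at 15.2% of the X-linked peaks and 9.91% of the autosomal ones. The X-linked median of the whole table was 0.05 with the RPKM library totals, which raise all peaks to 0.17, and -0.24 with loess offsets. Without X-linked peaks the pathway genes had 8 peaks (4.42%) higher and 17 (9.39%) lower at an unadjusted p under 0.05. Their promoter median was then -0.09, where all autosomal genes gave -0.07.

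Neighbouring parts of the ubiquitin system were counted in the same fit, and edgeR called 0 of their peaks with adjustment, beside 0.0317% of all peaks. At an unadjusted p under 0.05 all peaks gave 6.44% higher and 7.72% lower. The 12 pathway genes that also act in the endoplasmic reticulum had 24 tested peaks, 2 higher (8.33%) and 1 lower (4.17%). Their promoter median was -0.01. The 38 proteasome genes, whose products degrade what the ligases mark, had 49 tested peaks, 1 higher (2.04%) and 6 lower (12.2%). Their promoter median was -0.13 over 32 genes. The 50 deubiquitinase genes, which remove ubiquitin, had 88 tested peaks, 6 higher (6.82%) and 5 lower (5.68%), and a promoter median of -0.09 over 37 genes. These medians are on the TMM scale, where all genes gave -0.07, and were not compared by a test. With the RPKM library totals they were 0.18, 0.01 and 0.09, where all genes gave 0.10. With loess offsets they were 0.05, -0.03 and 0.03, where all genes gave 0.009.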

How the data were processed

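ATAC-seq of 3 Ad-EGFP and 3 Ad-Dyrk1b liver samples was analysed from a single table of peaks. Per the file headers, the authors deposited whole-number read counts per peak and library, RPKM values made from them, the log2 ratio of the group means, a p-value with its FDR, and an annotation by gene, class and pathway. Per the submitters' processing notes the tools included ChIPseeker, DiffBind and Bowtie2 (no versions) and the build was mm10. How peaks were called, duplicates handled or reads shifted for the transposase is not given in the sources used here. No count was below 1. Of 99 matched genes only 5 started within 2 kb of their GRCm38 position, with a median shift of 138 kb, so peak coordinates are printed as deposited, for a build left unnamed; promoter windows are RefSeq GRCm38.p6 and were tied to peaks by gene symbol.

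Counts of all 22412 peaks entered edgeR 4.0.16 (R 4.3.3) with TMM factors, filterByExpr (361 peaks removed) and the quasi-likelihood test without covariates, with Benjamini-Hochberg adjustment over 22051 peaks at 0.05. Levels are TMM-scaled CPM of the reads in peaks, as mean ± SD (n = 3), and CPM per kb divides by peak length. Log2 changes carry the SE of the fit. The procedure was tested on simulated counts. DESeq2 1.42.0 and limma 3.58.1 (limma-trend, prior count 2) were alternatives, beside other scalings, no filter, other choices of peak, a replicate block and leaving out each library. Replicates differed by more than counting noise, so all 6 libraries were used. With 3 against 3 samples an exact permutation test of a single value cannot go below 0.10, so none was used.

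The genes, classes and lists were chosen with earlier results of these data known, which is why no p-value is given over a list. Named genes were any with a called peak, every E1 gene, in each other class up to 3 promoters of lowest p and the one of highest CPM per kb, and the 3 peaks outside promoters with the lowest p; others in the text were added after their values were seen, as relatives, for their number of peaks or for their place in the order. A gene that this rule names is not reported here.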

Additional observations from a re-analysis of the deposited data

How the results depend on the processing

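No alternative called a peak of these genes, and neither did the main fit. For named peaks 435 recomputed values kept their direction while 11 turned sign. DESeq2 values without an adjusted p, as at Uba1 and Siah1b, were left out of these counts. Pias3 stayed between 0.70 and 0.95 on the log2 scale, with adjusted p from 0.0881 to 0.436. The library totals behind RPKM move the median of all peaks to 0.17. They leave 2 pathway peaks lower and 11 higher at an unadjusted p under 0.05, where all peaks gave 1.13% and 7.49%. Promoter medians were then -0.10 (E1), 0.10 (HECT), 0.10 (U-box), -0.026 (RING), 0.14 (scaffold), -0.12 (receptor), 0.071 (APC/C) and 0.0051 (all 73 genes). Loess offsets left 6 higher and 15 lower at that threshold, where all peaks gave 5.38% and 7.26%. The promoter medians with these offsets were -0.13 (E1), -0.12 (RING), 0.090 (APC/C) and 0.014 (all). All peaks per gene gave -0.15 (E1), -0.13 (RING), -0.17 (receptor) and -0.047 (all), and the promoter peak nearest to the start gave -0.19 for the APC/C. The cause was not tested. Signs turned at the intronic Uba2 peak (0.0038 by library size, 0.13 by RPKM totals) and at Anapc4 (0.0065 by library size, 0.18 by RPKM totals, 0.16 by loess offsets).

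Leaving out 1 library gave 5 to 10 peaks higher and 12 to 16 lower at an unadjusted p under 0.05, where fewer samples enter and all peaks gave 5.01% to 6.91% higher and 5.92% to 7.58% lower. The fit on all 6 libraries gave 8 higher and 21 lower of 190, so every fit without 1 library had fewer lower peaks. The count fell to 5 higher and 13 lower without the first control, to 5 higher without the second Dyrk1b library and to 12 lower without the third. Promoter medians then ran from -0.33 to -0.17 (E1), -0.083 to 0.055 (E2), -0.24 to -0.088 (HECT), -0.11 to -0.017 (U-box), -0.30 to -0.043 (RING), -0.13 to 0.059 (scaffold), -0.45 to -0.22 (receptor), -0.19 to -0.067 (APC/C) and -0.17 to -0.091 (all). The intronic Uba2 peak ran from -0.16 to 0.22, Anapc4 from -0.21 to 0.14, and Uba7 from -0.086 (without the third Dyrk1b library) to 0.39. Peaks of these genes rest on medians of 29 to 46 reads per library, which limits the precision of each estimate, and replicates also spread by more than counting noise.

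Samples share only replicate numbers: deviations of same-numbered libraries correlated at -0.0098, -0.0144 and 0.0073. With the replicate block 7 of the 190 peaks were higher and 21 lower at an unadjusted p under 0.05, where all peaks gave 6.0% and 7.3%. Of the pathway peaks 0 were called, where the whole table had 2 higher and 5 lower. The promoter median was -0.10, where all genes gave -0.07.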
